A study of Homo sapiens with 4 samples.

Results

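The genes described here are the cadherins and protocadherins measured in LNCaP cells, an androgen-responsive human prostate cancer cell line. They were chosen by symbol alone, as every probe set annotated to a single CDH, PCDH, DSC, DSG or CELSR gene. This gave 145 of the 51965 probe sets on the array and 85 of the 19583 genes. A further 6 probe sets name several protocadherins each and are described apart. The LNCaP-ERG cells carried a lentivirus described as ERG-RFP, for the ETS transcription factor ERG and red fluorescent protein (RFP). The LNCaP-vector cells carried a control lentivirus with RFP alone. Both were grown in ordinary serum-containing medium, seeded and left overnight before RNA was taken. There were 2 arrays per group, all from this 1 cell line. Nothing in the sources used here tells whether the 2 were independent cultures, so the p-values speak for the scatter of these arrays alone, and that scatter may be technical.

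Cadherins are calcium-dependent adhesion receptors. Their extracellular repeats bind cadherins on the neighbouring cell, and the tails of the classical ones bind catenins, which link them to actin. Desmosomal cadherins instead join intermediate filaments through plakoglobin, plakophilins and desmoplakin. Clustered protocadherins give neurons a surface identity and are encoded by arrays of related exons on chromosome 5, while CELSR proteins orient cells within a sheet. In prostate epithelium, E-cadherin and the desmosomes hold the luminal layer together, and a switch from E- to N-cadherin is a familiar mark of epithelial-mesenchymal transition.

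Values are log2 probe set intensities. Where a gene has several probe sets, the brightest one on average stands for it. Differences were tested with limma, with p-values adjusted over all 19583 genes by Benjamini-Hochberg. Arrays of the same group differed by an SD of 0.18 to 0.19 over all genes. The 4 ERG probe sets lay between 2.65 and 3.58 in every array, with log2 fold changes of -0.24 to 0.12, so ERG gives no check of the labels. It is unknown here if these probes lie in the transduced sequence. All 8 measured prostate luminal markers (KLK3 and TMPRSS2 among them) read at mean log2 intensities of 9.87 to 12.9, while both basal markers read 3.05 and 3.23. Genes of other organs, which prostate cells should not use, had a median of 3.20 and a 95th percentile of 5.74. Of 5 fibroblast markers only COL1A1 was above that percentile, and their summed level was 8.81 to 8.90 in LNCaP-ERG and 8.48 to 8.54 in vector (log2 of the sum). Of 4 endothelial markers only VWF was, with sums of 6.59 to 6.72 in LNCaP-ERG and 6.28 to 6.45 in vector, and no blood or neuronal marker was. The part of these in the results below was not tested. The percentile serves below as the level under which a reading may be background.

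Most of the family was dim. A group mean above 5.74 was found for 12 of the 85 genes, and for 9342 of all 19583 genes. The other 73 family genes read 2.50 to 5.05 in every array. The 12 were E-cadherin (CDH1), CDH22 and CDH26, the desmosomal DSG2 and DSC2, the protocadherins PCDH1, PCDHB2, PCDHB3, PCDHB5, PCDHB13 and PCDHB18P, and CELSR2. By limma, no family gene passed an adjusted p of 0.05 in either direction, where 2 of all genes did (0.0102%). The smallest adjusted p in the family was 0.34. The largest log2 fold change in size was 0.50, so none reached a 2-fold difference. With 2 arrays a group, a p that misses the threshold does not show that levels were equal.

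At an unadjusted p under 0.05, 8 family genes were higher in LNCaP-ERG (9.41%, against 5.61% of all genes) and 1 was lower (1.18%, against 4.11%). The arrays did not overlap, with LNCaP-ERG higher, for 27 family genes (31.8%, against 21.7% of all genes) and, with LNCaP-ERG lower, for 10 (11.8%, against 19.1%). The median log2 fold change of the 85 genes was 0.06, beside 0.008 over all genes tested, with 53 family genes above 0 and 32 below. Among the 145 probe sets, 9 were higher at an unadjusted p under 0.05 and 1 was lower (4.05% of all probe sets in each direction), and 34 were apart with LNCaP-ERG higher and 19 with it lower (18.8% and 19.4% of all).

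These values moved with the choice of probe sets and arrays. The median was 0.023 without the first vector array, 0.022 when all probe sets of a gene were averaged and 0.012 with probe sets of the plain kind, whose probes are specific to 1 transcript by design. Over all genes, the median under these settings was 0.0008, 0.0015 and 0.0017, in the same order. The 8 higher genes came down to 3 with averaged probe sets and to 2 with plain probe sets. The share of all genes at an unadjusted p under 0.05 was not counted under these settings, so no background stands beside them.

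**Figure D1:**
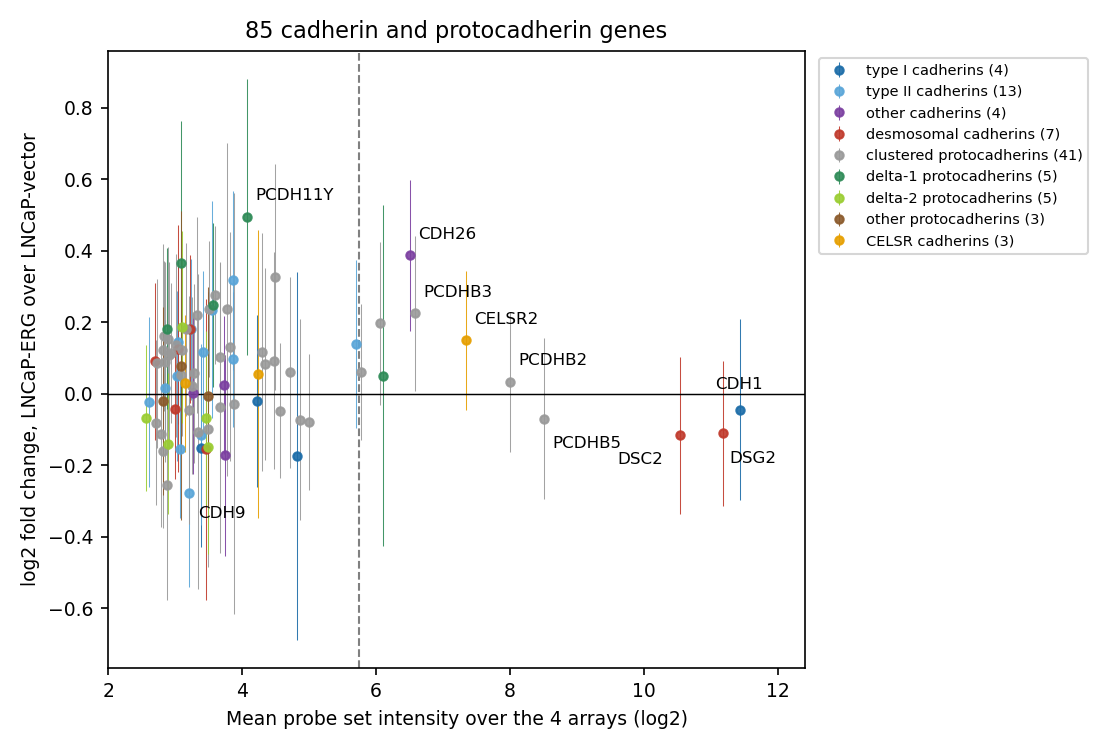
Log2 fold change of LNCaP-ERG over LNCaP-vector (y axis, bars are 95% confidence intervals from limma) against the mean log2 probe set intensity over the 4 arrays (x axis) for the 85 genes, coloured by family group with the number of genes in brackets. Other-organ genes have their 95th percentile at the dashed line, 5.74; the largest positive value is that of PCDH11Y at 0.50, to its left, and the genes at the far right (CDH1, DSG2, DSC2) lie within 0.12 of 0.

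Among the type I classical cadherins, CDH1, the E-cadherin of epithelial adherens junctions, read 11.31 and 11.52 in the LNCaP-ERG arrays and 11.45 and 11.47 in the vector arrays. The LNCaP-ERG arrays lay on both sides of the vector arrays. The log2 fold change was -0.04 (95% confidence interval -0.30 to 0.21, adjusted p = 0.93), which spans fold values of 0.814 to 1.16, so a 2-fold difference lies outside the interval. Its sign turned without the first LNCaP-ERG array (0.064). A second CDH1 probe set was dim, at means of 3.71 in LNCaP-ERG and 3.72 in vector. CDH2, the N-cadherin of neural and mesenchymal cells, read 3.38 and 3.25 in LNCaP-ERG and 3.35 and 3.58 in vector, at the level of genes of other organs in both. CDH3, the P-cadherin of basal epithelial cells, read 5.03 and 4.42 in LNCaP-ERG and 4.90 and 4.90 in vector, and CDH15, the cadherin of muscle, was also under 5.74 in every array. By the brightest probe set of each, the groups were apart in none of these 4 genes. The second CDH15 probe set was dim and had the groups apart. Its means were 3.73 in LNCaP-ERG and 3.94 in vector (-0.21, adjusted p = 0.63 over all probe sets).

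The largest difference among the family genes above background was in CDH26, a cadherin of epithelia that is known from inflamed gastrointestinal mucosa. It read 6.76 and 6.64 in the LNCaP-ERG arrays and 6.30 and 6.33 in the vector arrays, so both LNCaP-ERG arrays were higher. This was a 1.31-fold difference (log2 fold change 0.39, standard error 0.08, 95% confidence interval 0.18 to 0.60) with an adjusted p of 0.34 over all genes. Leaving out 1 array at a time gave log2 fold changes of 0.33 to 0.45. CDH26 has 4 probe sets. The next brightest read 5.64 in both LNCaP-ERG arrays and 5.02 and 5.22 in vector, a log2 fold change of 0.52 (adjusted p = 0.53 over all probe sets). The remaining 2 were dim and overlapped, at 0.25 and -0.06. In bulk RNA, a larger share of cells with a transcript and more transcript per cell cannot be told apart, here and in all that follows.

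As the family gene above background with the largest difference, CDH26 is shown with the 250 bases before its RefSeq start (GRCh38.p14, chr20:59958173-59958422, plus strand), searched for CCGGAA, a core that ETS factors such as ERG bind, and for CAGGTG, the E-box of the SNAI and ZEB repressors, on both strands. Neither exact run of 6 letters was found, so none is in capitals. Looser forms of either site were not searched for, so their absence is not shown.
CDH26: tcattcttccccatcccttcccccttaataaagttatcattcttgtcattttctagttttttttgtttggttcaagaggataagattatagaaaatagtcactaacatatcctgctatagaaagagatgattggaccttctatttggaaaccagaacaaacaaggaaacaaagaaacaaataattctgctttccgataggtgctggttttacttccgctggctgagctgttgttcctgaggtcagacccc
Over the 63 family genes with a promoter in the table, CCGGAA stood in 4 (6.35%, against 14.5% of all 35116 promoters) and CAGGTG in 8 (12.7%, against 17.5%). A match here is a run of letters and does not show binding.

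The desmosomal cadherins measured were DSC1 to DSC3 and DSG1 to DSG4, which lie side by side on chromosome 18. DSG2 and DSC2, the pair that simple epithelia use, were far above background, and the other 5, which belong mainly to stratified epithelia, were below 5.74 in every array. DSG2 read 11.08 and 11.17 in LNCaP-ERG and 11.25 and 11.22 in vector. The log2 fold change was -0.11 (95% confidence interval -0.31 to 0.09, adjusted p = 0.70). DSC2 read 10.41 and 10.53 in LNCaP-ERG and 10.55 and 10.63 in vector, a log2 fold change of -0.12 (95% confidence interval -0.33 to 0.10, adjusted p = 0.71). For both genes each LNCaP-ERG array lay under both vector arrays, and neither gene passed.

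The other probe sets of this pair also had negative log2 fold changes, and larger ones. The second DSG2 probe set had means of 7.48 in LNCaP-ERG and 7.70 in vector, a log2 fold change of -0.22 (adjusted p = 0.62 over all probe sets). The dimmest of 3 DSC2 probe sets read 5.96 and 6.45 in LNCaP-ERG and 6.58 and 6.82 in vector, with a difference of -0.50 on the log2 scale (standard error 0.19, adjusted p = 0.60). In the remaining DSC2 probe set the groups overlapped, with -0.25. None of the 5 probe sets passed, and their sizes differed from -0.11 to -0.50 for the same RNA.

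The promoters of this pair are shown because both carry the CAGGTG E-box, in capitals, among the 250 bases before the RefSeq start (GRCh38.p14). DSG2 (chr18:31497927-31498176, plus strand) has it beginning 232 bases before the start and, on the other strand, 116 bases before. DSC2 (chr18:31102422-31102671, minus strand) has it 156 bases before.
DSG2: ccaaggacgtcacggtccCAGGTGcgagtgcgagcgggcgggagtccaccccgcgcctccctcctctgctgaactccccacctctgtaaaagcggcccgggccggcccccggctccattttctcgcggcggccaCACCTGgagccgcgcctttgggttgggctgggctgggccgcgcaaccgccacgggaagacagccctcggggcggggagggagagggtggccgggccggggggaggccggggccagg
DSC2: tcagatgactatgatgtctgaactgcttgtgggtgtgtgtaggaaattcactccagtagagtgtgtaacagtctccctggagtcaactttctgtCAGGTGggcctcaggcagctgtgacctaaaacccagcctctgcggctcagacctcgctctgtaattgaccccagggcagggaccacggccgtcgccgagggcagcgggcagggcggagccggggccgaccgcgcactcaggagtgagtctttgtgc
CCGGAA was in neither. CAGGTG is not particular to this pair. The other family promoters with it were those of DSG1, PCDH1, PCDHGA11, PCDHGB6, PCDH15 and PCDHB1. Their genes had log2 fold changes of 0.09, 0.05, 0.11, 0.09, -0.02 and -0.08, in that order, and only PCDH1 was above 5.74.

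**Figure D2:**
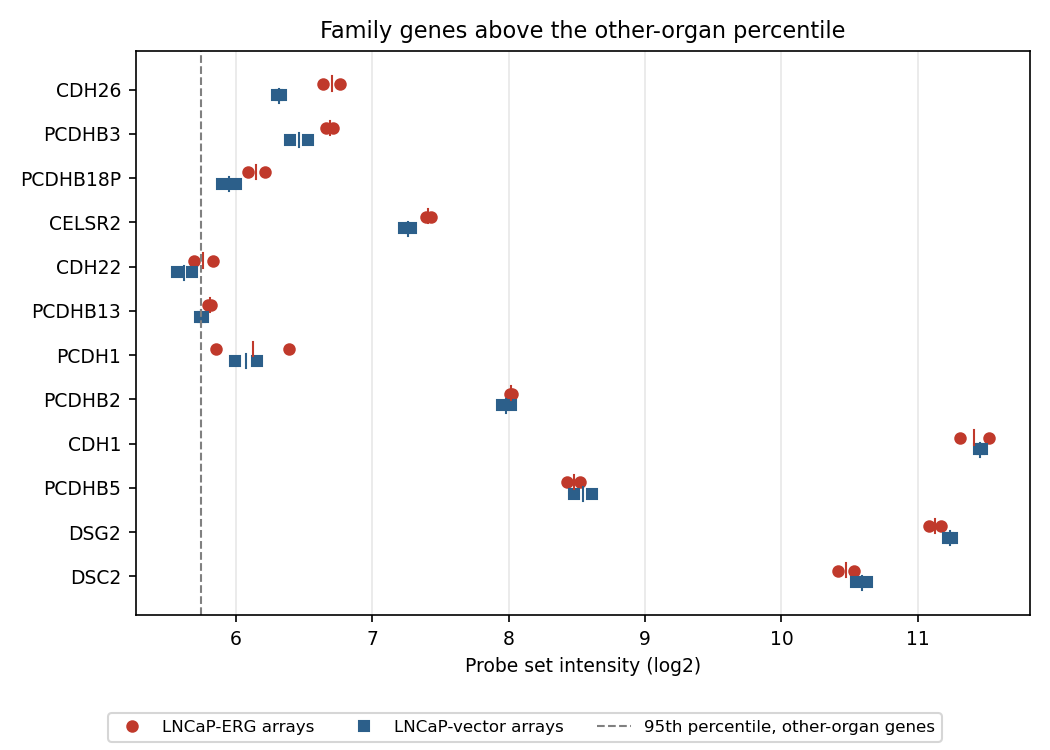
The 12 family genes with a group mean above the 95th percentile of other-organ genes (dashed line, 5.74), by their log2 intensity (x axis) and in order of log2 fold change from CDH26 (0.39) to DSC2 (-0.12). Circles are the 2 LNCaP-ERG arrays, squares the 2 LNCaP-vector arrays and short lines the group means. The widest gap is that of CDH26, and both DSG2 and DSC2 have their LNCaP-ERG arrays to the left of the vector arrays; CDH22 is past the line by its LNCaP-ERG mean alone.

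The clustered protocadherins made up 41 of the 85 genes: 8 PCDHA, 19 PCDHB and 14 PCDHG genes. No PCDHA or PCDHG gene was above 5.74, while 5 PCDHB genes were. PCDHB2 read 8.02 and 8.01 in LNCaP-ERG and 8.02 and 7.95 in vector (log2 fold change 0.03, 95% confidence interval -0.16 to 0.23, adjusted p = 0.93). PCDHB5 read 8.52 and 8.43 in LNCaP-ERG and 8.48 and 8.61 in vector (log2 fold change -0.07, 95% confidence interval -0.29 to 0.16, adjusted p = 0.85). Both are read by probe sets of the plain kind, and in both the groups overlapped.

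The remaining PCDHB genes above background are less certain in identity. PCDHB3 read 6.66 and 6.71 in LNCaP-ERG and 6.40 and 6.53 in vector, with a log2 fold change of 0.23 (adjusted p = 0.50, standard error 0.09). PCDHB18P, a pseudogene of the cluster, read 6.09 and 6.21 in LNCaP-ERG and 5.90 and 6.01 in vector (0.20, adjusted p = 0.56), and PCDHB13 read 5.82 and 5.80 in LNCaP-ERG and 5.74 and 5.76 in vector (0.06, adjusted p = 0.84). Both LNCaP-ERG arrays were higher in all 3. These probe sets are of the x kind, in which some probes can pick up similar transcripts, and the plain probe set of each gene was dim, with means of 2.84, 3.02 and 2.87 in LNCaP-ERG and 2.74, 2.93 and 2.98 in vector. The readings of the 3 genes could therefore come from any near-identical PCDHB transcript, and PCDHB13 had a negative log2 fold change with its plain probe set (-0.10).

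Over the whole cluster the median log2 fold change was 0.09, with 28 genes above 0 and 13 below, and 4 were higher and none lower at an unadjusted p under 0.05, where 5.61% and 4.11% of all genes were. Besides PCDHB3 these were PCDHAC1 (0.28, adjusted p = 0.39), PCDHGA3 (0.24, adjusted p = 0.44) and PCDHB6 (0.33, adjusted p = 0.50). All 3 lay between 3.37 and 4.72 in every array and were read by probe sets of the x kind. With plain probe sets PCDHAC1 and PCDHB6 had -0.025 and -0.0076, and PCDHGA3 had 0.11, with overlapping groups in all 3.

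Many promoters of clustered protocadherins share a conserved element with a CGCT core, which is bound by the architectural protein CTCF. The 100 bases before the RefSeq start of the PCDHB genes above background with a promoter in the table are shown with each CGCT, on either strand, in capitals. All are on the plus strand of GRCh38.p14, at chr5:141094515-141094614 for PCDHB2, chr5:141100373-141100472 for PCDHB3, chr5:141135106-141135205 for PCDHB5 and chr5:141213819-141213918 for PCDHB13.
PCDHB2: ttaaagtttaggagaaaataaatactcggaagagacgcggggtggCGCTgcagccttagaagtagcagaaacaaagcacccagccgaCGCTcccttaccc
PCDHB3: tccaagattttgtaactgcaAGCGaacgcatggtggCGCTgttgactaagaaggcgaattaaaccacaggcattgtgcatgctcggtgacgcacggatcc
PCDHB5: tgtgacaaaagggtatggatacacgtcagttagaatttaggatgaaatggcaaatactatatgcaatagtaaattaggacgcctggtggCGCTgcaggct
PCDHB13: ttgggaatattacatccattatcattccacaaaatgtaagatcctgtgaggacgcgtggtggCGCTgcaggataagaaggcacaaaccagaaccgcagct
In each, a CGCT follows the letters gtgg, beginning 55, 64, 11 and 38 bases before the start, in the order shown. Of the 33 clustered genes with a promoter in the table, 31 had a CGCT in these 100 bases (93.9%, against 44.8% of all promoters), and PCDHA9 and PCDHB8 had none. The longer GTGGCGCT, which contains it, stood in 12 of the 33 (36.4%, against 0.45% of all). CGCT stood before dim clustered genes too, and these letters alone do not show the conserved element.

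The 6 probe sets that name several protocadherins were tested with all 51963 complete probe sets, of which none passed (0%). One reads the shared part of 11 PCDHG genes and was well above background, at 7.69 and 7.65 in LNCaP-ERG and 7.60 and 7.65 in vector, with no gap between the groups (log2 fold change 0.05, 95% confidence interval -0.17 to 0.26, adjusted p = 0.94). The 14 single PCDHG genes were all below 5.74, so this one reading does not say which gene of the cluster it comes from. The 3 that name 15 PCDHA genes were dim (2.70 to 3.46), with log2 fold changes of -0.03, 0.00 and 0.15.

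The other 2 name PCDH11Y with PCDH11X, a delta-1 protocadherin pair from the X and Y chromosomes whose Y form has been studied in hormone-refractory prostate cancer cells. The brighter of them read 5.03 and 5.16 in the LNCaP-ERG arrays and 4.39 and 4.45 in the vector arrays. Both LNCaP-ERG arrays were higher (log2 fold change 0.67, standard error 0.10, unadjusted p = 5.8e-04, adjusted p = 0.39 over all probe sets by limma). Leaving out 1 array at a time gave 0.61 to 0.73. The dimmer one overlapped between the groups (-0.10).

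Taking the brightest probe set per gene, PCDH11Y had the highest log2 fold change of the family. It read 4.16 and 4.48 in LNCaP-ERG and 3.68 and 3.97 in vector (0.50, standard error 0.15, adjusted p = 0.43 over all genes). Its second probe set had 0.20 and that of PCDH11X 0.18, again with both LNCaP-ERG arrays higher. So 4 of the 5 probe sets for this pair were apart in the same direction, where 18.8% of all probe sets were, and these 5 share near-identical sequence and are not independent. None was above 5.74, so the sizes are changes near background and give no exact fold.

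**Figure D3:**
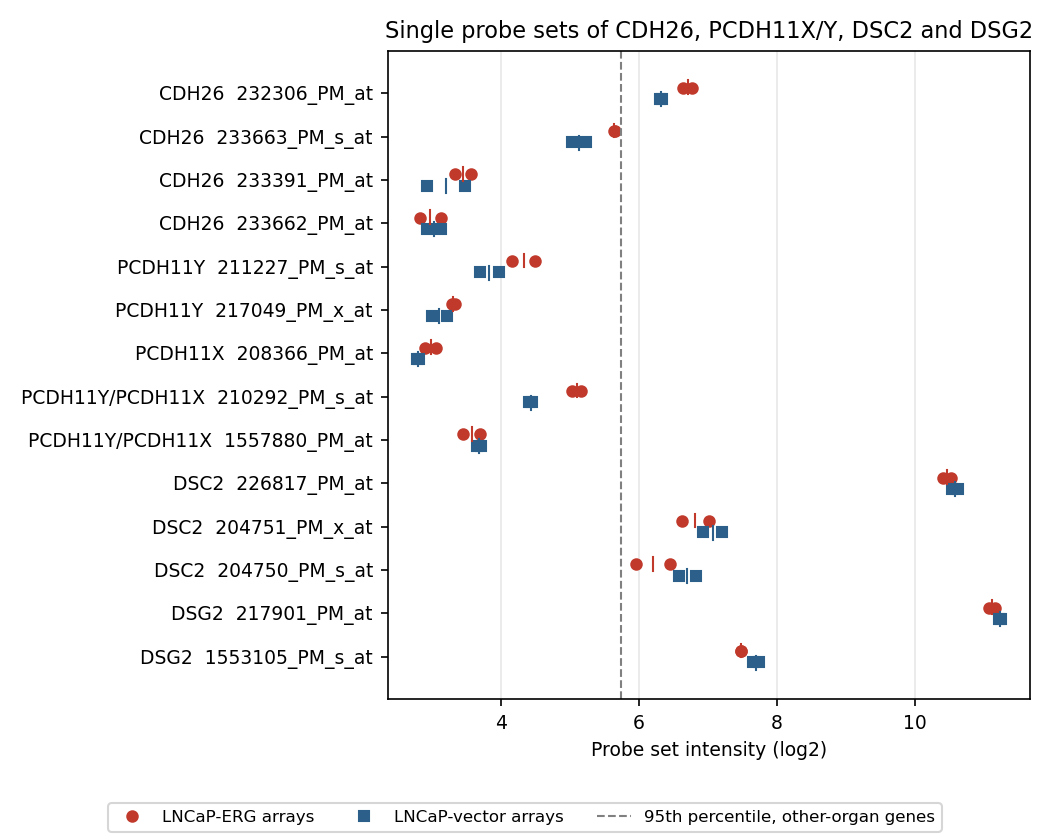
Log2 intensity (x axis) of every single probe set (y axis) of CDH26, PCDH11Y, PCDH11X, DSC2 and DSG2 and of the 2 that name PCDH11Y with PCDH11X. Circles are the 2 LNCaP-ERG arrays, squares the 2 LNCaP-vector arrays; short lines mark group means, and a dashed line the 95th percentile of other-organ genes (5.74). The widest gap is that of the brighter PCDH11Y and PCDH11X probe set, with 5.03 and 5.16 in LNCaP-ERG and 4.39 and 4.45 in vector.

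The other delta-1 protocadherins were PCDH1, PCDH7 and PCDH9. PCDH1, an airway and keratinocyte adhesion protein, read 6.39 and 5.86 in LNCaP-ERG and 5.995 and 6.16 in vector. Its LNCaP-ERG arrays lay on both sides of the vector arrays, and the log2 fold change of 0.05 (95% confidence interval -0.43 to 0.53, adjusted p = 0.96) became -0.22 without the first of them. The second PCDH1 probe set was dim, with -0.09. PCDH9, a neural protocadherin, read 3.64 and 3.74 in LNCaP-ERG and 3.51 and 3.38 in vector (0.25, adjusted p = 0.48), and PCDH7 read 3.04 and 3.49 in LNCaP-ERG and 2.92 and 2.88 in vector (0.37, adjusted p = 0.54). The second PCDH9 probe set had -0.03, and the other PCDH7 probe sets ran from -0.10 to 0.23. The delta-2 protocadherins and PCDH12, PCDH15 and PCDH20 were dim. Their log2 fold changes ran from -0.15 for PCDH18 (adjusted p = 0.73), the brightest delta-2 gene, to 0.19 for PCDH17 (adjusted p = 0.63). In PCDH17 both LNCaP-ERG arrays were higher, but its other probe sets had -0.11 and -0.05. The second PCDH18 probe set had 0.07. PCDH12, brighter than PCDH15 and PCDH20, had -0.01 (adjusted p = 0.999). None of these 8 genes had an unadjusted p under 0.05.

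The type II cadherins, which mostly serve neural and mesenchymal cells, had a median log2 fold change of 0.10 over 13 genes. CDH22, of brain, was the only one with a group mean above 5.74, and that only in LNCaP-ERG, at 5.83 and 5.69 in LNCaP-ERG and 5.57 and 5.68 in vector (0.14, 95% confidence interval -0.09 to 0.37, adjusted p = 0.67). Its second probe set was dim and overlapped between the groups (-0.05). CDH18 read 4.07 and 3.97 in LNCaP-ERG and 3.79 and 3.61 in vector (0.32, adjusted p = 0.44). CDH9 had the lowest log2 fold change of the family, at 3.14 and 3.001 in LNCaP-ERG and 3.25 and 3.44 in vector (-0.28, standard error 0.10, adjusted p = 0.50). It was the only family gene lower at an unadjusted p under 0.05. Both CDH18 and CDH9 are neural and lay under 5.74 throughout.

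Of the CELSR cadherins, CELSR2 was above background, at 7.43 and 7.39 in LNCaP-ERG and 7.29 and 7.23 in vector. Both LNCaP-ERG arrays were higher, by 1.11-fold (log2 fold change 0.15, 95% confidence interval -0.04 to 0.35, adjusted p = 0.59), and 0.12 to 0.18 on the log2 scale when 1 array at a time was left out. CELSR1 and CELSR3 were under 5.74 in every array, with 0.03 and 0.06.

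The partners of the family, from 6 lists, had no gene past the adjusted threshold either. Among the 6 repressors of E-cadherin, 1 was higher and 2 were lower at an unadjusted p under 0.05, where 5.61% and 4.11% of all genes were, and lists this small leave little to read from such counts. TWIST1, a mesenchymal transcription factor, read 8.65 and 8.50 in LNCaP-ERG and 9.11 and 9.04 in vector, 1.41-fold lower in LNCaP-ERG (log2 fold change -0.50, adjusted p = 0.29, standard error 0.09). SNAI2, the Slug repressor of CDH1, read 5.71 and 5.93 in LNCaP-ERG and 6.31 and 6.43 in vector, 1.46-fold lower (-0.55, standard error 0.11, adjusted p = 0.32). In both genes the groups were apart, and each has 1 probe set, so no second reading bears on it.

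TCF3, the E2A transcription factor, read 8.89 and 8.83 in LNCaP-ERG and 8.56 and 8.54 in vector (0.31, adjusted p = 0.37), but its 9 other probe sets had log2 fold changes of -0.01 to 0.17. ZEB2 was dim (-0.14, adjusted p = 0.63), and its other probe sets, also dim, had log2 fold changes of -0.13 to 0.36. Beside these differences CDH1 itself had -0.04, with the interval given above.

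Of the 9 catenins, none was higher and 1, CTNNA2, was lower at an unadjusted p under 0.05 (5.61% and 4.11% of all genes). CTNNA2, the neural alpha-catenin, was dim (-0.28, adjusted p = 0.39). CTNND1, the p120 catenin that keeps cadherins at the surface, read 9.01 and 9.003 in LNCaP-ERG and 8.86 and 8.87 in vector (0.14, adjusted p = 0.60). Its other probe sets, all above 5.74, had -0.02, 0.02 and 0.26. CTNNA3 and CTNND2 were dim. None of the 8 desmosome plaque genes had an unadjusted p under 0.05. DSP, the desmoplakin that carries the desmosomal cadherins, read 10.86 and 10.97 in LNCaP-ERG and 10.59 and 10.80 in vector (0.22, 95% confidence interval -0.04 to 0.49, adjusted p = 0.56), the opposite sign to DSG2 and DSC2. PERP had -0.08. PKP1 and PKP2 were dim, with -0.07 and -0.12, and their second probe sets had -0.08 and 0.13.

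None of the 11 adherens junction genes measured had an unadjusted p under 0.05. In 5 of them, both LNCaP-ERG arrays were lower than both vector arrays, where 19.1% of all genes were. TJP1, the scaffold ZO-1, read 9.66 and 9.74 in LNCaP-ERG and 9.89 and 9.85 in vector (-0.17, adjusted p = 0.57). Its second probe set had -0.38 (adjusted p = 0.58 over all probe sets by limma). AFDN, SHROOM3 and NECTIN3 had -0.20, -0.10 and -0.18, and NECTIN3 was dim.

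Among 11 planar polarity genes, 1 was higher and none lower at an unadjusted p under 0.05 (5.61% and 4.11% of all genes). It was VANGL2, a core polarity protein that works with CELSR cadherins, at 7.08 and 7.01 in LNCaP-ERG and 6.73 and 6.75 in vector (0.30, adjusted p = 0.37). Its paralog VANGL1 read 7.58 and 7.66 in LNCaP-ERG and 8.07 and 7.76 in vector (-0.30, adjusted p = 0.53). The other VANGL1 probe sets had -0.24, -0.10 and, in a dim one with both LNCaP-ERG arrays higher, 0.22. DVL2 and PRICKLE2 were dim and had 0.15 and -0.25 with overlapping groups. Among 14 other members of the cadherin superfamily, 2 were higher and 1 was lower by the same measure, against the same shares of all genes. FAT1, a giant atypical cadherin, read 8.81 and 8.998 in LNCaP-ERG and 9.20 and 9.24 in vector (-0.32, adjusted p = 0.43). CLSTN3, a calsyntenin of synapses, read 6.20 and 6.19 in LNCaP-ERG and 5.92 and 5.98 in vector (0.25, adjusted p = 0.44), and DCHS1 (0.42, adjusted p = 0.48) and CLSTN2 (0.17, adjusted p = 0.56) were dim.

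**Figure D4:**
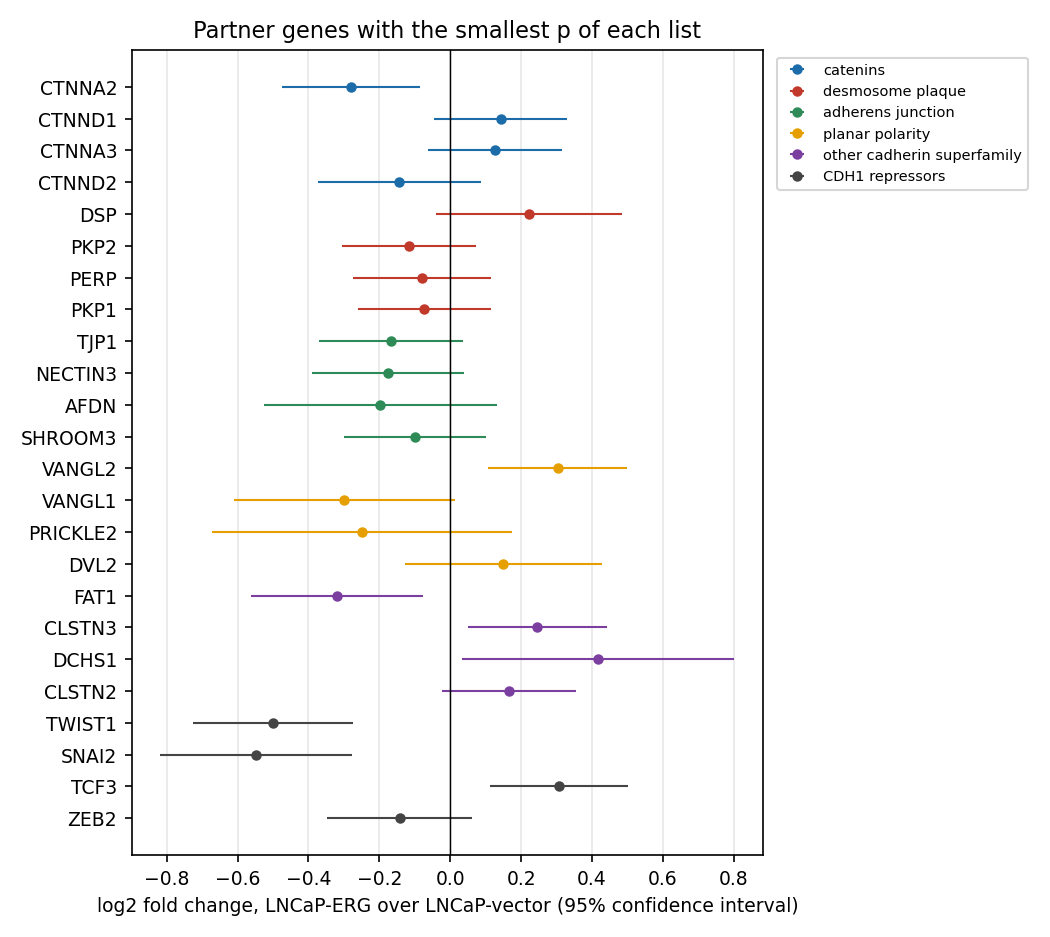
Log2 fold change of LNCaP-ERG over LNCaP-vector (x axis, bars are 95% confidence intervals from limma) of the partner genes with the 4 smallest p-values in each of 6 lists (y axis, coloured by list). TWIST1 (-0.50) and SNAI2 (-0.55) lie farthest to the left and DCHS1 (0.42) farthest to the right; none passed the adjusted threshold.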

How the data were processed

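RNA from 4 samples was hybridised to Affymetrix GeneChip arrays. The authors read the array images with dChip, normalized the data with RMAexpress, annotated them with Multiexperiment Viewer and deposited probe set intensities. The sources used here name no program versions. The values were read as linear and taken to log2. Of 51965 probe sets, 39466 name 1 gene, 838 several and 11661 none, and 2 with a missing value were left out. Entrez identifiers of 39415 matched the RefSeq table of GRCh38.p14, which gave promoters and chromosomes.

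A linear model with empirical Bayes moderation (limma 3.58.1, R 4.3.3; 2 residual and 3.23 prior degrees of freedom) was fitted for 19583 genes and, separately, for 51963 probe sets. Arrays have no read depth: their number limits the precision. Python 3.11.15 and matplotlib 3.10.9 were used otherwise.

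Members, partner lists and the 42 other-organ genes (35 measured) were chosen with earlier results of these data known. Named were members above the other-organ percentile, at an unadjusted p under 0.05, with the highest or lowest log2 fold change or brightest in their group, and the 4 partners with the smallest p per list. CDH2, CDH3, CDH15, PCDH7, PCDH11X, PCDH17, CELSR1 and CELSR3 were named after their values were seen. Alternatives tried were plain probe sets, averaging the probe sets of a gene, trended and robust moderation, no dim genes, quantile normalization again, centring on 19 housekeeping genes, a replicate block, the methods' t-test (Student) and leaving out each array.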

Additional observations from a re-analysis of the deposited data

How the results depend on the processing

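No family gene, family probe set or multi-gene probe set passed an adjusted p of 0.05 under any alternative run for it, and no gene of the related lists with the replicate block, the mean of probe sets or an array left out. Over all genes, where 1 was higher and 1 lower, the counts were 48 and 41 with trended and robust moderation, 31 and 23 without dim genes, 6 and 8 with the mean of probe sets, 4 and 3 with housekeeping centring, 2 and 1 with quantile normalization again, 1 and 2 with plain probe sets, and 0 and 0 with the methods' t-test or any array left out. Family genes at an unadjusted p under 0.05, 8 higher and 1 lower, became 3 and 0 with trended and robust moderation or without dim genes, 3 and 1 with the mean of probe sets, 2 and 1 with plain probe sets, and 6 and 2 with the methods' t-test. The share of all genes at an unadjusted p under 0.05 was not counted under these alternatives. With an array left out, the family's median log2 fold change ran from 0.023 to 0.074, and that of all genes from -0.0028 to 0.019. The family's median was 0.022 with the mean of probe sets and 0.012 with plain probe sets.

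Replicates with the same number were not seen to deviate together (r = 0.077 over genes). As each group has 2 arrays, both pairs give the same value, so this is a single comparison. With the replicate block, 0 genes passed in either direction, and the family genes at an unadjusted p under 0.05 were 7 higher and 0 lower.

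Of 51 log2 fold changes followed (named genes and multi-gene probe sets), 12 changed sign somewhere, all within 0.14 of 0 but for PCDHAC1 and PCDHB6. With the mean of probe sets, PCDH1 had -0.018, PCDHB13 -0.019, PKP2 0.0061 and ZEB2 0.018. With plain probe sets, PCDHAC1 had -0.025, PCDHB13 -0.10 and PCDHB6 -0.0076. With quantile normalization again, 1 PCDHA probe set had -0.0055. With arrays left out, CDH1 ran from -0.15 to 0.064, PCDH1 from -0.22 to 0.32, PCDH12 from -0.16 to 0.14 and PCDHB2 from -2.6e-05 to 0.069. The dimmer PCDH11Y and PCDH11X probe set ran from -0.23 to 0.025, the same PCDHA probe set from -0.088 to 0.092 and a second one from -0.25 to 0.20. The cause was not tested.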
